A study of Mus musculus with 20 samples.

Results

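The genes described here are the cell cycle inhibitors Cdkn1a, Cdkn1b, Cdkn2a, Cdkn2b, Cdkn2c and Cdkn2d, with the p53 gene Trp53 and its known targets Mdm2, Ccng1 and Trp53inp1. They were chosen by name, 10 of the 55573 genes in the table, and all 10 passed the filter on low counts. RNA was sequenced from cultures of 4 mouse induced pluripotent stem cell (iPSC) lines on days 0, 3, 5, 7 and 14 of embryoid body (EB) differentiation. EBs are clusters in which pluripotent cells begin to form the tissue types of the embryo. WT#1-4 and WT#20D-17 are wild type, and Nox4-/-#5-8 and Nox4-/-#5-23 lack Nox4, an NADPH oxidase that produces reactive oxygen species. By the study's methods iPSC lines were clones picked from embryonic fibroblasts transduced with retroviruses for Oct4, Sox2, Klf4 and c-Myc and selected with puromycin, and carry these vectors. The study describes WT#1-4 and both Nox4-/- lines, and how WT#20D-17, wild type by its label, was derived is not given in the sources used here. The lines were kept with LIF on fibroblast feeders treated with mitomycin C, cells from which the cultures may still hold RNA. EBs were formed without LIF in hanging drops over 3 days and then plated on gelatin. Each line gave 1 library a day, so a time course is replicated by 4 lines and each genotype by 2. The methods name CF-1 embryos at mid-gestation as a source of embryonic fibroblasts, without saying whether the fibroblasts behind each line came from them.

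A cell divides when cyclin-dependent kinases (CDKs), joined to cyclins, phosphorylate the retinoblastoma proteins and release the E2F factors. The Ink4 proteins (Cdkn2a, Cdkn2b, Cdkn2c and Cdkn2d) bind CDK4 and CDK6, and the Cip/Kip proteins (Cdkn1a and Cdkn1b) bind cyclin-CDK complexes more broadly. The transcription factor p53 answers DNA damage and other stress by switching on Cdkn1a, Mdm2, Ccng1 and Trp53inp1, and Mdm2 in turn marks p53 for degradation. The Cdkn2a locus is known as a barrier to reprogramming and is silent in pluripotent cells, and mouse pluripotent cells are known for a short G1 phase.

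The upstream promoter of Cdkn1a and the promoter of Ccng1 held a match to the p53 element, the DNA sequence that p53 binds. It was searched on both strands in RefSeq promoter windows (GRCm38.p6) of 250 bases before to 50 after each start. A match was both arms of the consensus with a gap of at most 13 bases and at most 1 mismatch. The C and the G at the core of each arm had to be intact. Of 32841 windows, 206 (0.627%) held such a match, and of the 12 windows of 9 of the 10 genes, 2 did. Of the 18 other listed p53 targets with a window, 1 did. Both matches had 1 mismatch and a gap of 0. They are shown 5′ to 3′ on the gene's strand, 80 bases each, with the match in capitals, because both genes are p53 targets that differed between the lines. The first is at chr17:29090898-29090977 (plus strand), with its capitals 51 to 32 bases before the upstream start of Cdkn1a. The window of the other Cdkn1a start (chr17:29093519-29093818) held no match, with 5 mismatches at the least among arrangements with intact cores. The second match is at chr11:40755432-40755511 (minus strand), with its capitals 195 to 176 bases before the start of Ccng1.
Cdkn1a: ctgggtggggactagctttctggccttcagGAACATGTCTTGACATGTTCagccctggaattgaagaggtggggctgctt
Ccng1: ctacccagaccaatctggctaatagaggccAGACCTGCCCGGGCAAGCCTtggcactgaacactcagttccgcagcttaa
A match is a description of letters, and binding was not measured here.

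Total counts per library were between 20294968 and 27708023. Levels are counts scaled to library size with TMM factors (CPM), 3 counts in a library were taken as the floor, and 5 values in a row stand for days 0, 3, 5, 7 and 14. Nox4 was at 0.149 to 0.875 CPM in WT#1-4 and 2.62 to 9.01 CPM in WT#20D-17. It was at or under the floor on every day in both Nox4-/- lines, where the most was 0.0839 CPM. The label iPSC went against the RNA of the markers chosen here in 3 lines. The study reports these lines as positive for alkaline phosphatase, with colonies that stained for Oct4 and Sox2 protein and for the marker SSEA-1. The genes of Oct4 and Sox2 were not among the markers summed here. The summed level of 8 pluripotency markers was 2558 CPM on day 0 and 72.7 CPM on day 14 in WT#20D-17, but 6.39 to 20.3 CPM in WT#1-4, 3.12 to 42.8 CPM in Nox4-/-#5-8 and 0.483 to 7.10 CPM in Nox4-/-#5-23. Of the 8, 3, 4 and 5 in these 3 lines were at or under the floor on every day, against 0 in WT#20D-17. The summed level of 12 fibroblast markers went from 31.3 to 3127 CPM in WT#20D-17 and was 191 to 286 CPM in WT#1-4, 49.1 to 104 CPM in Nox4-/-#5-8 and 40.6 to 80.7 CPM in Nox4-/-#5-23. The library of Nox4-/-#5-8 on day 14 stood apart in its balance of long to short genes. Its median log2 difference between them was -0.97, against -0.21 to 0.29 in the other libraries. Without it, no call on the 10 genes changed in any of the 5 tests below. The contrasts of single days and of pairs of lines were not rerun without it.

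Over the 14 days 4 inhibitors rose and Trp53 fell. In the test of day with line as a block (edgeR's quasi-likelihood test over all 20 libraries, with an FDR under 0.01 called), 5 of the 10 genes were called, against 17.3% of 18474 genes. Cdkn1a, Cdkn1b, Cdkn2b and Cdkn2d were higher and Trp53 lower, where 9.07% and 8.18% of genes were called in these directions. The median log2 difference between day 14 and day 0 was 0.72 over the 10 genes and 0.04 over all genes tested. On day 14 itself 6 were called, with Cdkn2a added, against 27.8% of genes (14.3% higher and 13.5% lower). On day 7 it was 4 (11.4%), on day 5 0 (2.41%) and on day 3 0 (0.162%). On days 5 and 3, 6 and 2 of the 10 had an unadjusted p under 0.05 by the quasi-likelihood test. The share of all genes at that p was not counted. DESeq2 called 6 of the 10 genes in the test over all days, and 5102 of all 18474 genes. The 4 called on day 7 were Cdkn1b, Cdkn2b and Cdkn2d, which were higher, and Trp53, which was lower, against 6.21% and 5.18% of genes. Each line agreed on the direction for 6 genes. Cdkn1a, Cdkn1b, Cdkn2a, Cdkn2b and Cdkn2d were higher on day 14 than on day 0 in all 4 lines, as were 17.9% of genes, and Trp53 was lower, as were 19.1%. Because the cultures are mixtures, fewer cells of a type and less RNA per cell cannot be told apart.

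**Figure D1:**
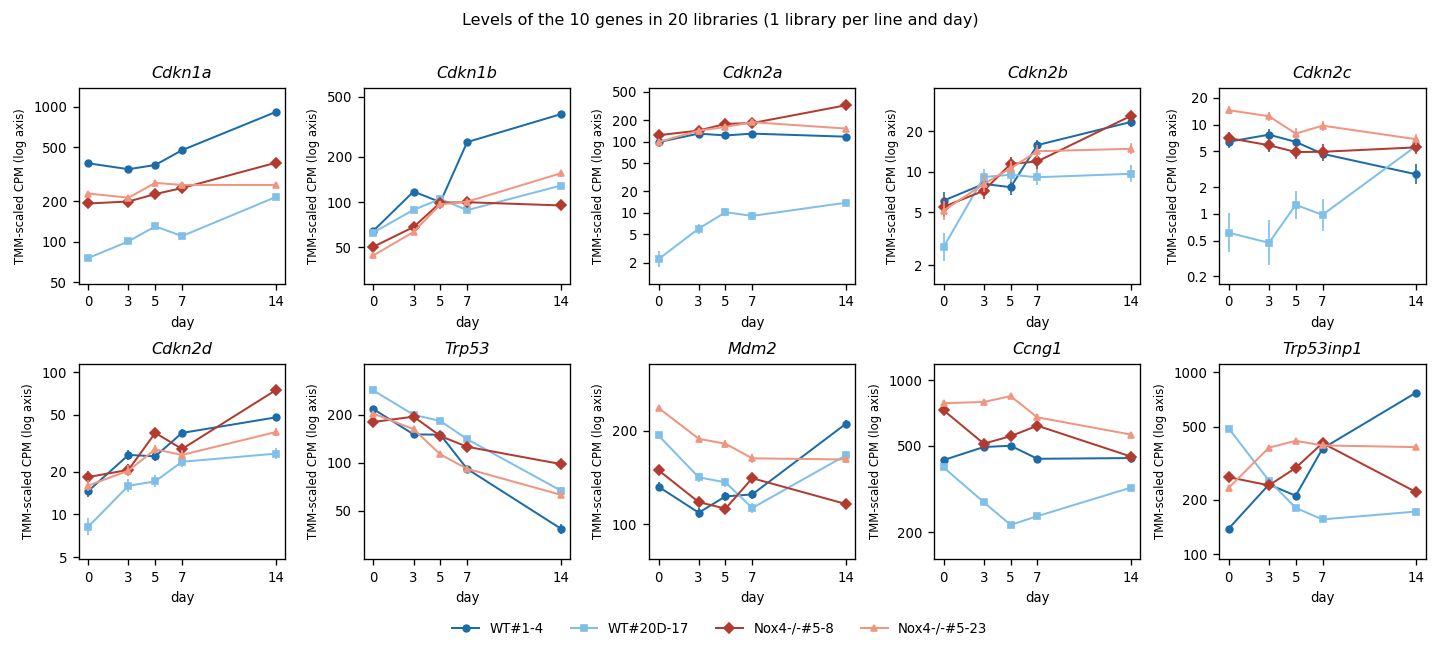
Level of each gene in TMM-scaled CPM (log axis, a scale of its own in each panel) against day, 1 line per cell line and 1 point per library, with bars for the 95% Wilson interval of the count. Trp53 went down in all 4 lines, Cdkn2a of WT#20D-17 lay below all other libraries, and Trp53inp1 went up in WT#1-4 and down in WT#20D-17.

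Cdkn1a encodes p21, which stops cyclin-CDK complexes and is the best known p53 target. The gene (ENSMUSG00000023067) lies on the plus strand of chromosome 17 from 29090976 to 29100727 (GRCm38). In wild type lines its level was 380.3, 344, 369.5, 475 and 911 CPM in WT#1-4 and 75.8, 101, 130.0, 110.1 and 214 CPM in WT#20D-17. The Nox4-/- lines had 192, 198, 225, 249 and 384 CPM in #5-8 and 227, 212, 272, 263 and 263 CPM in #5-23. In 3 lines day 14 was the highest day, and in Nox4-/-#5-23 the 5 days stayed within 212 to 272 CPM. The rise from day 0 to day 14 was 1.03 ± 0.188 (log2, SE) and 2.40-, 2.82-, 2.00- and 1.16-fold in WT#1-4, WT#20D-17, Nox4-/-#5-8 and Nox4-/-#5-23 (FDR of the day test 0.00168). The call was lost without WT#1-4 (FDR 0.0365) or without Nox4-/-#5-8 (FDR 0.0344), with rises of 0.92 and 1.05 left. Exons of Cdkn1a share 273 bases with the antisense gene AC167363.2, which had at most 99.97 counts in a library where Cdkn1a had up to 18400.

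Cdkn1a differed between lines (FDR of the line test 3.3e-07), and its genotype difference turned with the choice of wild type line. WT#20D-17 was below WT#1-4 by 2.02 on the log2 scale (-2.02 ± 0.172, FDR 7.59e-08), a 4.04-fold difference in the fit, with WT#1-4 the higher on every day by 2.84- to 5.02-fold. Both Nox4-/- lines lay between them. They were at -0.97 ± 0.167 (#5-8, FDR 0.000742) and -0.89 ± 0.168 (#5-23, FDR 0.00118) against WT#1-4, and at 1.05 ± 0.167 (FDR 5.92e-05) and 1.13 ± 0.168 (FDR 2.63e-05) against WT#20D-17. The Nox4-/- lines differed from each other by 0.08 ± 0.166 (95% interval -0.28 to 0.44).

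Cdkn1b encodes p27, the Cip/Kip inhibitor of cells that leave the cycle. The gene (ENSMUSG00000003031) is on the plus strand of chromosome 6 from 134920401 to 134925513. Its level was 64.5, 118, 99.9, 250.3 and 384 CPM in WT#1-4 and 62.8, 88.8, 105, 88.4 and 129 CPM in WT#20D-17. In the Nox4-/- lines it was 50.5, 68.3, 99.1, 99.8 and 94.98 CPM (#5-8) and 44.2, 63.4, 96.6, 101 and 155 CPM (#5-23). Day 0 was the lowest day in every line, and the last 2 days of WT#1-4 were above all other libraries. The rise to day 14 was 1.63 ± 0.27 on the log2 scale (FDR of the day test 0.00204), 5.95-fold in WT#1-4 and 1.88- to 3.51-fold in the other lines. The call was lost without Nox4-/-#5-8 (FDR 0.0135) or Nox4-/-#5-23 (FDR 0.0643), with a rise of 1.85 and 1.55 left, and without day 0 (FDR 0.0467). The lines differed (FDR of the line test 0.00425), and this rested on WT#1-4, since without that line the FDR was 0.582. It was also lost without Nox4-/-#5-8 (FDR 0.0144) or Nox4-/-#5-23 (FDR 0.0194).

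The Ink4 gene Cdkn2a had the lowest FDR of the 10 in the line test (4.27e-09). It encodes p16Ink4a, a CDK4 and CDK6 inhibitor, and, from another first exon and reading frame, p19Arf, which holds Mdm2 away from p53. Gene counts do not tell these products apart. The gene (ENSMUSG00000044303) is on the minus strand of chromosome 4 from 89274471 to 89294653. The wild type values were 98.1, 129, 122, 129 and 117 CPM in WT#1-4 and 2.26, 6.03, 10.2, 9.10 and 13.9 CPM in WT#20D-17. The Nox4-/- values were 123, 142, 177, 181 and 322 CPM in #5-8 and 98.2, 142, 159.8, 187 and 152 CPM in #5-23. The 5 libraries of WT#20D-17 (2.26 to 13.9 CPM) thus lay wholly below the other 15 (98.1 to 322 CPM), as they did or lay wholly above for 18.3% of genes. Against WT#1-4 the difference of WT#20D-17 was -4.05 ± 0.268 on the log2 scale (FDR 4.18e-09), 16.6-fold. Against it, Nox4-/-#5-8 was higher by 4.61 ± 0.274 (FDR 1.04e-09) and Nox4-/-#5-23 by 4.33 ± 0.271 (FDR 1.57e-09). Without WT#20D-17 the line test of Cdkn2a had an FDR of 0.0342.

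Cdkn2a was low in the line with high pluripotency markers. In WT#20D-17 the summed markers went from 2558 to 849.7, 230.0, 171.8 and 72.7 CPM over the days while Cdkn2a went from 2.26 to 13.9 CPM, 6.16-fold. In the other lines it changed 1.19-fold (WT#1-4), 2.63-fold (Nox4-/-#5-8) and 1.54-fold (Nox4-/-#5-23). The difference between day 14 and day 0 was 1.16 ± 0.27 (FDR 0.00257 on day 14, 0.031 over all days). Without the library of Nox4-/-#5-8 on day 14 the difference was 0.987 (FDR of the day test 0.0751). What part the pluripotent state of the cultures has in these values was not tested.

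**Figure D2:**
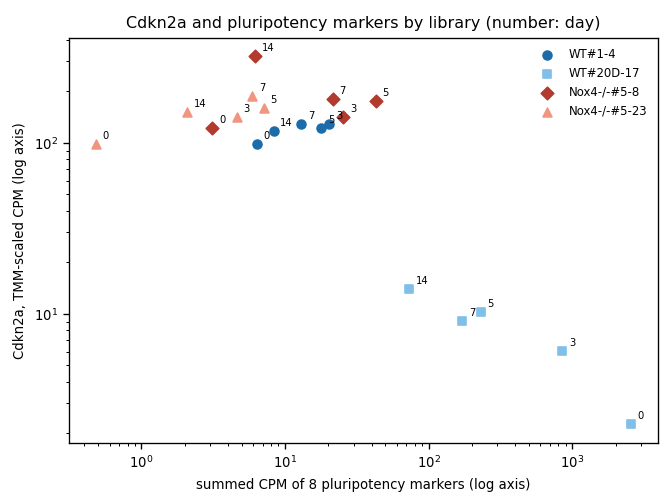
Cdkn2a against the summed level of 8 pluripotency markers, both in TMM-scaled CPM on log axes, 1 point per library labelled with its day. The 5 libraries of WT#20D-17 sit apart at 72.7 to 2558 CPM of markers and 2.26 to 13.9 CPM of Cdkn2a, and the other 15 lie at up to 42.8 CPM of markers and at least 98.1 CPM of Cdkn2a.

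Cdkn2b encodes p15Ink4b, next to Cdkn2a on the same chromosome. The gene (ENSMUSG00000073802) spans 89306299 to 89311039 on the minus strand of chromosome 4. It was at 6.09, 8.11, 7.67, 15.8 and 23.5 CPM in WT#1-4 and 2.75, 9.13, 9.49, 9.10 and 9.65 CPM in WT#20D-17. The Nox4-/- lines showed 5.47, 7.22, 11.4, 11.9 and 26.1 CPM (#5-8) and 5.13, 8.11, 10.6, 14.2 and 14.8 CPM (#5-23). Every line was lowest on day 0 and highest on day 14. The rise was 1.92 ± 0.28 (FDR of the day test 0.000787), between 2.89- and 4.78-fold. It was not called without WT#1-4 (FDR 0.0128), Nox4-/-#5-8 (FDR 0.0235) or Nox4-/-#5-23 (FDR 0.0252), with rises of 1.80 to 2.03 left, nor without day 0 (FDR 0.0338). Unlike its neighbour Cdkn2a it gave no call in the line test (FDR 0.156), and WT#20D-17 was at -0.58 against WT#1-4 (95% interval -1.11 to -0.04, FDR 0.0595). The difference between the 2 genes' contrasts was not tested.

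Cdkn2d, encoding p19Ink4d, was also lowest on day 0 and highest on day 14 in every line. Its gene (ENSMUSG00000096472) is on the minus strand of chromosome 9 from 21288410 to 21291407. Levels were 14.6, 26.2, 25.6, 37.3 and 48.0 CPM in WT#1-4 and 8.20, 15.9, 17.1, 23.4 and 26.7 CPM in WT#20D-17. In the knockout lines they were 18.3, 20.6, 37.4, 28.8 and 74.5 CPM for #5-8 and 15.9, 20.3, 28.6, 26.2 and 37.9 CPM for #5-23. From day 5 to day 7 it went down in both Nox4-/- lines and up in both wild type lines, with 1 library each. The share of all genes that do so was not counted. Cdkn2d gave no call in the test of genotype by day (FDR 0.791). Day 14 was above day 0 by 1.69 ± 0.199 on the log2 scale (FDR of the day test 0.000124), 2.38- to 4.07-fold. This call was kept without each line in turn. WT#20D-17 was the lowest line on every day, at -0.78 ± 0.174 against WT#1-4 (FDR 0.00134). The line test had an FDR of 0.00121, which became 0.257 without WT#20D-17.

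Cdkn2c, encoding p18Ink4c, was the least abundant of the 10 per length on day 14 in every line. On day 0 it was so in all lines but Nox4-/-#5-23. Its gene (ENSMUSG00000028551) spans 109660876 to 109667189 on the minus strand of chromosome 4. The wild type lines had 6.43, 7.72, 6.40, 4.71 and 2.77 CPM (WT#1-4) and 0.615, 0.474, 1.26, 0.976 and 5.77 CPM (WT#20D-17). The Nox4-/- lines had 7.07, 5.87, 4.93, 4.96 and 5.56 CPM (#5-8) and 14.5, 12.4, 7.93, 9.73 and 6.86 CPM (#5-23). The lowest of these values, on day 3 in WT#20D-17, rests on 11 counts (95% Wilson interval 0.265 to 0.848 CPM, counting error only). WT#20D-17 stayed within 0.474 to 1.26 CPM up to day 7 and was at 5.77 CPM on day 14, 9.38-fold above day 0, while the other lines went down 1.27- to 2.32-fold. The lines differed (FDR of the line test 0.00434), with Nox4-/-#5-23 above WT#20D-17 by 2.77 ± 0.579 (FDR 0.000627). The call of the line test was lost without Nox4-/-#5-8 (FDR 0.0103), Nox4-/-#5-23 (FDR 0.027) or day 0 (FDR 0.0274). No call was made over days (0.41, 95% interval -0.93 to 1.74, FDR of the day test 0.824).

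Trp53 itself fell in all lines. The gene (ENSMUSG00000059552) lies on the plus strand of chromosome 11 from 69580359 to 69591873. Its level was 217, 151, 150.0, 91.4 and 38.5 CPM in WT#1-4 and 285, 200.2, 183, 140.5 and 66.8 CPM in WT#20D-17. In the Nox4-/- lines the values were 180.4, 195, 147, 126 and 98.0 CPM (#5-8) and 204, 162, 113, 91.6 and 62.8 CPM (#5-23). Day 14 was the lowest day of each line, and the 4 libraries of day 14 were at 38.5 to 98.0 CPM against 180.4 to 285 CPM on day 0. The share of all genes with such a gap between these days was not counted. The fall was -1.76 ± 0.191 on the log2 scale (FDR of the day test 6.01e-05), and 5.65-, 4.26-, 1.84- and 3.24-fold in WT#1-4, WT#20D-17, Nox4-/-#5-8 and Nox4-/-#5-23. It was called without each line in turn. The interaction of genotype and day had the lowest p of the 10 genes here (quasi-likelihood test, unadjusted p = 0.0403, FDR 0.67). The lines were not told apart (FDR of the line test 0.0607).

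Among the p53 targets, Mdm2, Ccng1 and Trp53inp1 gave no call over days. Mdm2, the ubiquitin ligase that removes p53 (ENSMUSG00000020184, minus strand of chromosome 10, 117688875 to 117710758), had 132, 109, 123, 125 and 210.5 CPM in WT#1-4 and 193, 142, 136, 113 and 167 CPM in WT#20D-17. It had 149, 118, 112, 141 and 116 CPM in Nox4-/-#5-8 and 237, 188, 181, 163 and 162 CPM in Nox4-/-#5-23. All 20 values lay within 109 to 237 CPM. Each wild type line overlapped every other line, while Nox4-/-#5-23 (162 to 237 CPM) lay wholly above Nox4-/-#5-8 (112 to 149 CPM). The share of all genes that separate the Nox4-/- lines was not counted. The difference of day 14 from day 0 was -0.07 (95% interval -0.48 to 0.34, FDR of the day test 0.216). The line test had an FDR of 0.0316, which went under the threshold (0.00761) without WT#1-4. The difference between the Nox4-/- lines was 0.57 ± 0.168 (FDR 0.0459).

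Ccng1 encodes cyclin G1, which p53 induces and which feeds back on Mdm2. The gene (ENSMUSG00000020326) lies on the minus strand of chromosome 11 from 40748552 to 40755311. It was the most abundant of the 10 per length on day 0 in every line. It had 429, 493, 499.8, 435 and 439 CPM in WT#1-4 and 397, 275, 216, 237 and 321 CPM in WT#20D-17. It had 727, 511, 553, 618 and 445 CPM in Nox4-/-#5-8 and 785, 795, 845, 675 and 562 CPM in Nox4-/-#5-23. WT#20D-17 (216 to 397 CPM) lay wholly below the other 15 libraries (429 to 845 CPM), where 18.3% of genes lay wholly below or above. The line test had an FDR of 1.29e-05. WT#20D-17 was at -0.73 ± 0.162 against WT#1-4 (FDR 0.0012). Nox4-/-#5-23 was at 0.67 ± 0.162 (FDR 0.00731) and Nox4-/-#5-8 at 0.28 ± 0.161 (FDR 0.259) against WT#1-4. Over days no call was made (-0.36, 95% interval -0.75 to 0.04, FDR of the day test 0.47).

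Trp53inp1 encodes a nuclear and autophagy protein that helps p53 act on its apoptotic targets. The gene (ENSMUSG00000028211) is on the plus strand of chromosome 4 from 11156431 to 11174379. In WT#1-4 it had 139, 242, 209.8, 381 and 772 CPM and in WT#20D-17 489.8, 254, 179.9, 156 and 172 CPM. In Nox4-/-#5-8 it had 265, 239, 298, 408 and 219.5 CPM and in Nox4-/-#5-23 232, 385, 419.7, 396 and 388 CPM. The wild type lines crossed, 5.56-fold up in WT#1-4, which was the lower of the pair up to day 3, and 2.85-fold down in WT#20D-17. The day and line tests gave no call (FDR 0.891 and 0.591). The slopes of log2 level over days were compared in a test added after the data were seen. WT#20D-17 had the lower slope by -0.274 ± 0.0447 log2 per day for Trp53inp1 (FDR 0.000785) and the higher one by 0.35 ± 0.0509 for Cdkn2c (FDR 0.000372). The other 8 genes gave no call, against 7.44% of 19240 genes called. Over all 4 lines the same 2 genes were called, against 9.19% of genes.

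**Figure D3:**
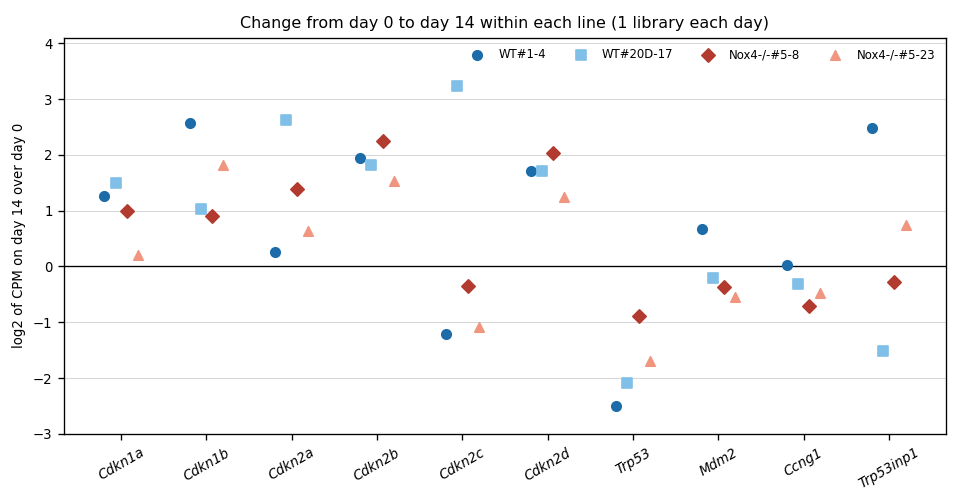
Log2 of the CPM on day 14 over day 0 (vertical axis) for each gene (horizontal axis) in the 4 lines, 1 point per line. All 4 points lie above 0 for Cdkn1a, Cdkn1b, Cdkn2a, Cdkn2b and Cdkn2d and below 0 for Trp53, and they fall on both sides for Cdkn2c, Mdm2, Ccng1 and Trp53inp1.

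Levels of the genes were ranked per kilobase of exon within each line. On day 0 Ccng1 stood first, with 113 to 223 CPM per kb, and Cdkn2c stood last in 3 lines (0.229 to 2.63 CPM per kb) and at rank 9 in Nox4-/-#5-23. Cdkn2a stood at rank 2 or 3 in WT#1-4 and both Nox4-/- lines (83.7 to 105 CPM per kb) and at rank 9 in WT#20D-17 (1.92 CPM per kb). By day 14 Cdkn1a was first in WT#1-4 (257 CPM per kb), Cdkn2a in Nox4-/-#5-8 (275 CPM per kb) and Ccng1 in the other lines. Trp53 went from rank 4 to 9 in WT#1-4, 3 to 7 in WT#20D-17, 4 to 6 in Nox4-/-#5-8 and 4 to 8 in Nox4-/-#5-23.

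The wild type lines differed in 4 of these genes and the Nox4-/- lines in 0, with the share called between the wild type lines near that of all genes when both directions are counted. In the line test 6 of the 10 genes were called (Cdkn1a, Cdkn1b, Cdkn2a, Cdkn2c, Cdkn2d and Ccng1), against 51.5% of genes. Between the wild type lines 4 were called, all lower in WT#20D-17 (Cdkn1a, Cdkn2a, Cdkn2d and Ccng1), against 39.8% of genes called and 19.1% called lower. The median log2 difference of WT#20D-17 from WT#1-4 was -0.76 over the 10 and 0.00 over all genes. Against WT#1-4, Nox4-/-#5-8 gave 1 call (Cdkn1a, 8.02% of genes called) and Nox4-/-#5-23 gave 2 (Cdkn1a and Ccng1, 11.4%). Against WT#20D-17 each gave the same 5, all higher (Cdkn1a, Cdkn2a, Cdkn2c, Cdkn2d and Ccng1), where 44.1% and 45.0% of genes were called and 20.6% and 21.5% called higher. Between the Nox4-/- lines 0 of the 10 were called, against 3.55% of genes. By edgeR's quasi-likelihood test 2 of them, Mdm2 and Ccng1, had an unadjusted p under 0.05.

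With the line as the unit, 2 Nox4-/- lines against 2 wild type lines, 0 of the 10 genes were called, as were 0 (0.0%) of 20229 genes. At an unadjusted p under 0.05 edgeR gave 0 of the 10 and 1628 of all genes, and DESeq2 called 0 and 730. The log2 differences were -0.25 ± 0.706 for Cdkn1a, 1.41 ± 1.28 for Cdkn2a, -0.58 ± 0.376 for Cdkn1b and 1.13 ± 0.82 for Cdkn2c. Ccng1 was at 0.83 ± 0.336 (unadjusted p = 0.0712 by the quasi-likelihood test, FDR 0.605). An exact permutation test of 2 against 2 lines cannot go below p = 0.333. Cdkn2a and Ccng1 were higher in both Nox4-/- lines than in both wild type lines on each of the 5 days, as were 3.33% of genes. For Cdkn2a on day 0 the lowest Nox4-/- value and the highest wild type value were both near 98 CPM (98.18 and 98.11), each inside the other's 95% Wilson interval. On days 0, 3, 5, 7 and 14, 35.0%, 40.9%, 39.6%, 44.0% and 45.3% of genes did not overlap between genotypes, and over all 20 libraries none of the 10 genes separated them, against 2.6% of genes.

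The study describes an edgeR exact test of wild type against knockout that pools all time points, and names WT#1-4 and both Nox4-/- lines. Its 33860 genes with a nonzero value match all 20 libraries here, so whether WT#20D-17 was tested is not settled. Both Cdkn1a and Cdkn1b are among the genes it selected, which also had to change over days in wild type alone. Its methods and a figure legend give different FDR limits. Here edgeR's exact test was run over 15 libraries, those of WT#1-4 and both Nox4-/- lines. It called 1 of the 10 genes, against 5.62% of 33860 genes (3.97% lower). Cdkn1a was lower in the Nox4-/- lines (log2 difference -1.0, FDR 0.000424). Days of a line are not independent samples, and without Nox4-/-#5-8 (FDR 0.0127) or Nox4-/-#5-23 (FDR 0.031) the call was lost, with differences of -0.97 and -1.0 left. When the wild type was WT#20D-17 instead, 4 were called, all higher in the Nox4-/- lines, against 25.8% of genes called and 9.83% called higher. These were Cdkn1a (0.98, FDR 0.000322), Cdkn2a (4.34, FDR 2.37e-24), Cdkn2c (2.14, FDR 0.000729) and Ccng1 (1.17, FDR 4.68e-07). With both wild type lines pooled, 1 was called, against 12.1% of genes (2.5% higher), which was Ccng1 (0.80, FDR 0.000568), and Cdkn1a was at -0.32 (FDR 0.669). Against WT#1-4, Cdkn1b was at -1.07 (FDR 0.031), which was called without day 0 (-1.13, FDR 0.00851) and in a quasi-likelihood test with day as a block (-0.89, FDR 8.47e-05). Ccng1 was also called against WT#1-4 alone when Nox4-/-#5-8 was left out (0.70, FDR 0.00484).

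**Figure D4:**
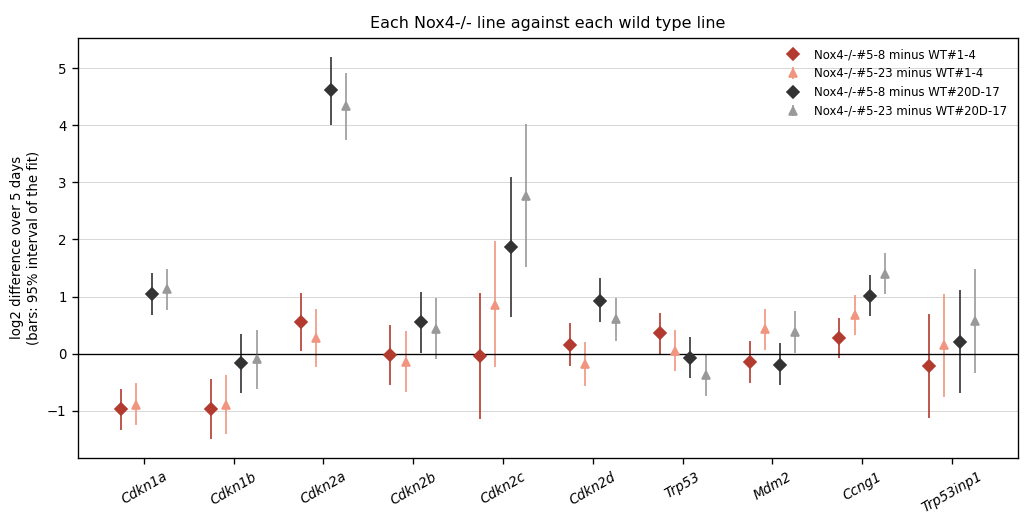
Log2 difference of each Nox4-/- line from each wild type line over the 5 days (vertical axis), with 95% intervals of the fit with line and day, for the 10 genes (horizontal axis). Cdkn1a lies near -0.9 against WT#1-4 and near 1.1 against WT#20D-17, and Cdkn2a lies above 4 against WT#20D-17 alone.

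Whether the course over days differed between genotypes was asked in a model with line, day and the interaction of genotype and day. Of the 10 genes 0 were called, as were 2 (0.0104%) of 19240 genes. By the quasi-likelihood test 1391 genes had an unadjusted p under 0.05, among them Trp53, and DESeq2 called 191. Without WT#1-4, Cdkn2c was called (FDR 0.00796), but the wild type course is then that of WT#20D-17 alone, with its 1 library of 5.77 CPM on day 14, and the spread comes from the Nox4-/- lines only.

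Other known p53 targets were read from a list of 23 genes. Over days 4 were called, 1 higher and 3 lower, a share near the 17.3% of all genes, with a median log2 difference between day 14 and day 0 of 0.09, against 0.04 over all genes. WT#20D-17 differed from WT#1-4 in 12 of them, 3 higher and 9 lower, with a median of -0.43, where 39.8% of all genes were called and 19.1% called lower. Btg2, an antiproliferative gene, rose by 1.70 (FDR of the day test 0.000322) and was 44.7 CPM on day 0 and 251 CPM on day 14 in WT#1-4. Pidd1, which joins p53 to caspase activation, went the other way (-1.90, FDR 0.000362). Perp, a desmosome and apoptosis gene, was at 361 to 706 CPM in Nox4-/-#5-8, 368 to 513 CPM in Nox4-/-#5-23, 92.5 to 410.0 CPM in WT#1-4 and 28.2 to 74.5 CPM in WT#20D-17 (1.89 with the line as the unit, FDR 0.604). Dram1, an autophagy gene, was at 12.8 to 38.8 CPM in WT#20D-17 and at 0.268 to 1.16 CPM in all other libraries (-4.31, FDR 0.605). With the line as the unit 0 of the 23 were called by edgeR, with 0 at an unadjusted p under 0.05, and 0 by DESeq2. The pooled test against WT#1-4 called 1 by edgeR and 2 by DESeq2, against 1903 and 2205 of all 33860 genes.

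**Figure D5:**
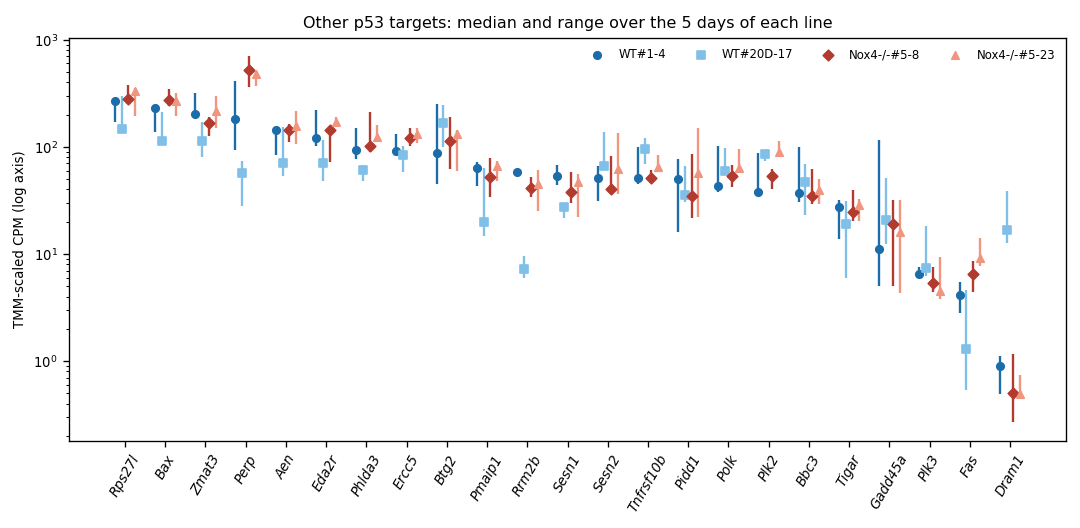
Levels of the 23 other p53 targets in TMM-scaled CPM (log axis), with a point for the median and a bar for the range over the 5 days of each line. WT#20D-17 lies lowest for Perp and highest for Dram1.

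Of 14 regulators and relatives of p53, 3 were called over days, all lower, against 17.3% of all genes called and 8.18% called lower. Chek1, the kinase of the replication checkpoint, fell by 2.18 (-2.18, FDR of the day test 3.76e-05), from 54.1 to 8.42 CPM in WT#1-4 and from 63.8 to 14.7 CPM in WT#20D-17. Usp7, which removes ubiquitin from Mdm2 and p53, fell too (-1.12, FDR 0.00197). Mdm4, the partner of Mdm2 that holds p53 inactive, was at 560 to 943 CPM in the Nox4-/- libraries and 274 to 833 CPM in the wild type ones (0.77 with the line as the unit, FDR 0.605). Trp73, a relative of p53, was at 1.68 to 10.1 CPM in the Nox4-/- lines and 0.420 to 12.99 CPM in the wild type lines (0.94, FDR 0.755). Between genotypes 0 of the 14 were called by edgeR with the line as the unit (0 at an unadjusted p under 0.05) and 0 by DESeq2. The pooled test against WT#1-4 gave 2 calls by either tool, against 1903 (edgeR) and 2205 (DESeq2) of all 33860 genes.

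Most of 19 CDKs, cyclins, retinoblastoma proteins and other cell cycle genes were lower on day 14 than on day 0. Among the retinoblastoma genes Rbl1 was lower on day 14 in every line. Rbl2 was higher, though only from 31.5 to 31.6 CPM in Nox4-/-#5-8. Rb1 went from 103 to 250 CPM in WT#1-4 and from 178 to 308 CPM in Nox4-/-#5-23, and down in the other lines. Of 19, 10 were called over days, 2 higher and 8 lower, against 9.07% and 8.18% of all genes, with a median log2 difference of -0.92. The 2 higher ones were the D-type cyclins Ccnd2 (3.88, FDR of the day test 4.54e-05) and Ccnd3 (1.68, FDR 0.000119), partners of CDK4 and CDK6. Ccnd2 went from 59.96 to 411 CPM in WT#1-4, from 2.99 to 135 CPM in WT#20D-17, from 18.2 to 200 CPM in Nox4-/-#5-8 and from 16.7 to 382 CPM in Nox4-/-#5-23. Cdk6 was at 8.50 to 34.5 CPM in WT#20D-17 and 99.7 to 342 CPM in the other lines (1.19 with the line as the unit, FDR 0.728). Cdkn1c, the remaining Cip/Kip inhibitor, reached 211 CPM on day 14 in WT#20D-17 and was at most 39.0 CPM in the other lines (-1.69, FDR 0.688). Between genotypes 0 of the 19 were called by edgeR with the line as the unit (0 at an unadjusted p under 0.05) and in the pooled test (1 at that p), and 0 by DESeq2 in either. Of all genes in these 2 tests, edgeR called 0 and 1903 and DESeq2 called 730 and 2205.

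Of 12 regulators of the Ink4-Arf locus, 4 were called over days, 1 higher and 3 lower, against 9.07% and 8.18% of all genes. The Polycomb genes Ezh2 (-1.71, FDR of the day test 0.000617) and Eed (-0.86, FDR 0.00055), whose products silence the locus, fell. In WT#20D-17, Ezh2 went from 126 to 87.7 CPM, and in the other lines from 92.4 to 24.6, 141 to 34.3 and 130.3 to 24.6 CPM. Cbx7, a Polycomb reader and known repressor of the locus, was at 0.0764 to 0.674 CPM in both Nox4-/- lines, 26.35 to 126.5 CPM in WT#1-4 and 69.8 to 272 CPM in WT#20D-17 (-8.36, FDR 0.604 with the line as the unit). Tbx3, another repressor of the locus, was at 19.7 to 156 CPM in WT#20D-17, 0.495 to 1.41 CPM in WT#1-4 and at most 0.280 CPM in the Nox4-/- lines (-8.65, FDR 0.604). Other regulators on the list were low in WT#20D-17. Bmi1 was at 6.03 to 15.9 CPM there and 22.8 to 69.5 CPM in the other lines. Cbx8 was at 1.19 to 11.9 CPM there and 8.71 to 27.1 CPM in the other lines. Between genotypes, with the line as the unit, edgeR called 0 of the 12, with 2 at an unadjusted p under 0.05, but DESeq2 called 2, Cbx7 and Tbx3. Of all 20229 genes these tools called 0 and 730. The pooled test against WT#1-4 called 2 by either tool, against 1903 (edgeR) and 2205 (DESeq2) of all 33860 genes. In the fit with line and day, each Nox4-/- line was below each wild type line in Cbx7 (-7.14 to -9.31, FDR 3.79e-07 to 3.58e-09) and in Tbx3 (-3.2 to -9.82, FDR 0.00775 to 2.61e-08), in contrasts that share lines. Of 4 neighbours of Cdkn2a on chromosome 4, Mtap, a methionine salvage enzyme, was at 16.3 to 42.3 CPM in WT#20D-17 and 21.5 to 108 CPM in the other lines. It fell over days (-1.5, FDR 0.000401), as did the RNA-binding gene Elavl2 (-3.11, FDR 7.51e-05), while Cdkn2a and Cdkn2b were higher on day 14. Each of the 4 neighbours was called between the wild type lines, 1 higher and 3 lower in WT#20D-17, against 39.8% of all genes called.

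The 10 genes were also compared with each other and with all genes by Pearson's r of log2(CPM + 1) over the 20 libraries. These share lines and days, so r is a description. After line means were removed, Cdkn2b and Cdkn2d had r = 0.932, and Trp53 had r = -0.895 with Cdkn1b, -0.878 with Cdkn1a, -0.844 with Cdkn2d and -0.829 with Cdkn2b. Mdm2 had r = 0.53 with Trp53inp1, 0.517 with Ccng1 and -0.133 with Trp53. Without that removal, the genes most like each were Hrct1 (0.946) and Nudt16 (0.928) for Cdkn1a, Adm (0.968) and Gas7 (0.953) for Cdkn1b, and St3gal6 (0.987) and S100a16 (0.986) for Cdkn2a. They were Spsb2 (0.956) and Rnh1 (0.948) for Cdkn2b, Iffo1 (0.943) and Hic1 (0.927) for Cdkn2c, and Fbxo4 (0.941) and Capns1 (0.93) for Cdkn2d. For Trp53 they were Ppil1 (0.973) and Stip1 (0.972), for Mdm2 Ankle2 (0.86) and Mybl1 (0.85), for Ccng1 Btbd19 (0.956) and Nanos1 (0.954), and for Trp53inp1 2700097O09Rik (0.841) and Mapkapk3 (0.834). After line means were removed these 20 values of r were 0.743 (Cdkn1a with Nudt16) to 0.973 (Trp53 with Stip1), and 0.816 for Cdkn1a with Hrct1 and 0.808 for Cdkn2a with St3gal6.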

How the data were processed

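Gene-level expected counts of 20 libraries were deposited by the authors. By the study's methods, stranded mRNA libraries were read in pairs, trimmed, mapped to mm10/GRCm38 with STAR 2.6.0c and counted with RSEM 1.3.1, which splits reads matching more than 1 gene. The strand setting is not given in the sources used here. Counts (9.92% with decimals) were rounded for the tests. Symbols came from GENCODE M21 for 55394 of 55573 identifiers.

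Tests used R 4.3.3 and edgeR 4.0.16 (TMM scaling, quasi-likelihood and exact tests, Benjamini-Hochberg FDR under 0.01), with DESeq2 1.42.0 as an alternative. Day and line were tested with line and day as terms on genes passing filterByExpr, with genotype-specific days added for genotype by day. With the line as the unit, counts were summed over days, and the pooled genotype test kept genes with any nonzero value. Intervals of log2 differences used 12 residual degrees of freedom. Libraries of different days are paired by cell line. The labels' protocol lists day 10 where titles give day 14, which was used. Nothing says that libraries came from separate cultures, so p-values measure the spread between these libraries.

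The genes and lists were chosen with earlier results of these data known. Named genes were the 10, Nox4, from each list 2 with the lowest FDR over days and 2 with the largest genotype difference with the line as the unit (mean of at least 1 CPM), and the 2 most alike to each of the 10. Rb1, Rbl1, Rbl2, Bmi1 and Cbx8 were named outside this rule, after the data were seen. Of the alternatives (scaling, filter, DESeq2, wild type line, block, days, each line left out), 6 were added after the data were seen. They left out the library of Nox4-/-#5-8 on day 14 or fitted a line by linear day trend. Scripts were tested on simulated counts. Intervals of counts and the floor of 3 counts cover counting error only.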

Additional observations from a re-analysis of the deposited data

Results flagged for a closer look

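The slopes over days of the wild type lines differed for Trp53inp1 by -0.274 log2 per day (WT#20D-17 minus WT#1-4, SE 0.0447, FDR 0.000785). The level went from 139 to 772 CPM in WT#1-4 and from 489.8 to 172 CPM in WT#20D-17. The slopes of Cdkn2c differed the other way, by 0.35 log2 per day (SE 0.0509, FDR 0.000372), with 6.43 to 2.77 CPM in WT#1-4 and 0.615 to 5.77 CPM in WT#20D-17. Both stood out in a test of the difference itself, which was added after the data were seen. It was the interaction of line and linear day trend in edgeR's quasi-likelihood test. Between the wild type lines it called 1432 of 19240 genes (7.44%). Cdkn2c of WT#20D-17 stayed within 0.474 to 1.26 CPM up to day 7, so its slope rests largely on the library of day 14. The summed pluripotency markers went from 2558 to 72.7 CPM and the summed fibroblast markers from 31.3 to 3127 CPM in WT#20D-17, against 6.39 to 8.32 CPM and 194 to 275 CPM in WT#1-4. Their part in these slopes was not tested.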

How the results depend on the processing

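The test of day called 3188 genes and 5 of the 10. It called 5102 genes by DESeq2, 1181 without day 0, 1033 without the block by line, and 624 to 3978 without each line in turn, with 3 of the 10 without day 0, 3 without the block and 2 to 5 without a line. Without the block the FDR was 0.692 for Cdkn1a and 0.0156 for Cdkn1b. The line test called 9516 genes and 3843 to 8174 without a line. Genotype by day called 2 genes, 11 with any nonzero value, 191 by DESeq2, 0 without day 0, 0 without the block, 0 without the library of Nox4-/-#5-8 on day 14 and 0 to 666 without a line. Of the 10 it called 0, with 0 to 1 without a line. The line by day trend asks another question, whether any of the 4 lines differ in slope, and has no term for genotype. It called 1768 genes and 2 of the 10. The pooled genotype test called 1903 genes, 8751 against WT#20D-17 and 4101 with both wild type lines. Of the 10 it called 1, but 4 against WT#20D-17, 2 with a quasi-likelihood test blocked by day, 2 without day 0 and 0 to 1 without a line. With the line as the unit 0 genes were called, 730 by DESeq2 and 0 to 178 without a line.

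Signs turned as follows, on the log2 scale and uncalled except where said. Over days, Mdm2 was 0.29 without day 0, 0.04 without the library of Nox4-/-#5-8 on day 14 and -0.37 to 0.05 without a line. Cdkn2c was -0.26 without the block and -0.81 to 0.93 without a line, and Trp53inp1 -0.51 to 1.15. In the pooled test against WT#20D-17, Cdkn1a (0.98, called), Cdkn2b (0.52), Trp53 (-0.34) and Trp53inp1 (0.38) turned. With both wild type lines, Cdkn2b (0.18), Trp53 (-0.14) and Trp53inp1 (0.12) turned. Cdkn2d was -0.01 by DESeq2, RLE scaling and the test blocked by day, and -0.22 without the library of Nox4-/-#5-8 on day 14. Trp53inp1 was 0.09 in the blocked test. Without a Nox4-/- line the pooled value was -0.18 to 0.02 for Cdkn2b, -0.20 to 0.24 for Cdkn2d, -0.01 to 0.20 for Trp53, -0.14 to 0.44 for Mdm2 and -0.29 to 0.10 for Trp53inp1. With the line as the unit and a line left out, Cdkn1a was -0.92 to 1.09, Cdkn2b -0.02 to 0.60, Trp53 -0.30 to 0.08, Mdm2 -0.13 to 0.45 and Trp53inp1 -0.00 to 0.41. The cause was not tested, beyond the fewer libraries where a line was left out. Of the other calls on the 10 genes, those of day and line that were lost without a line are given with each gene.

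Where leaving out a line leaves 1 of a genotype, that line is assumed to vary like the others. Each genotype has 2 lines, so clone and genotype cannot be told apart beyond these 4 lines. Depth limits Cdkn2c in WT#20D-17, where 11 to 29 counts stood behind each level up to day 7.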
